A study of Mus musculus with 12 samples.

Results

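The genes described here are 10 transcriptional targets of p53: Pmaip1, Bbc3, Bax, Phlda3, Trp53inp1, Mdm2, Ccng1, Btg2, Sesn1 and Plk2. They were chosen by gene symbol from a deposited expression table of 23446 genes, with earlier results of these data known. All 10 were found, and all 10 were among the 12230 genes with enough reads to be tested.

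The libraries came from C2C12, an established mouse line of muscle precursor cells, which proliferates in growth medium and withdraws from the cell cycle, then fuses, in differentiation medium. Cells in growth medium (GM) or differentiation medium (DM) received acetoacetate (AA), a ketone body, or PBS for 12 h, and each of the 4 combinations (written GM-PBS or GM-AA, and DM-PBS or DM-AA) had 3 libraries. The labels give no genotype or transgene, and they state neither the dose nor the salt of AA, so an AA difference includes that of any counter-ion. Whether the 3 libraries of a group were grown as separate cultures is also unstated, and p-values then reflect the spread between these libraries alone, which may be technical.

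p53 is a transcription factor that is held low in unstressed cells by Mdm2, a ubiquitin ligase, and by the related protein Mdm4. DNA damage and other stresses free p53 from both, and it then switches on genes for cell death, growth arrest and stress control, Mdm2 itself among them, which closes a negative feedback loop. Much of this control acts on the p53 protein, so mRNA levels of Trp53, the gene for p53, and of its targets are only a partial view of it. Several targets also answer to other factors, as Sesn1 and Bbc3 do to FoxO proteins.

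Total counts ranged from 7959519 to 9893564 reads per library, and a member had between 75 reads (Bbc3) and 4379 reads (Ccng1) in a library. The myoblast markers Myod1, Myf5, Des and Cdh15 summed to 544 to 733 RPKM (reads scaled to gene length and library size) over the 12 libraries. Most of this sum came from Des, with group means of 428 to 542 RPKM. The mean of Myod1 was 77.1 RPKM in GM-PBS, 61.3 in GM-AA, 57.6 in DM-PBS and 60.5 in DM-AA. Those of Myf5, Des and Cdh15 were lowest in GM-PBS. The 5 markers of differentiating muscle, Myog, Myh3, Acta1, Ckm and Tnnt3, summed to between 22.1 and 25.7 RPKM in GM-PBS and between 29.5 and 38.2 RPKM with AA, and in DM to between 37.3 and 41.1 RPKM with PBS and between 71.3 and 90.7 RPKM with AA. The rise with medium came from Myog, at 5.05 ± 0.575 RPKM in GM-PBS and 30.7 ± 1.44 in DM-PBS (SD, n = 3), while Acta1 stood at 17.3 ± 1.04 and 6.94 ± 0.370 RPKM, Myh3 and Tnnt3 were also lower in DM-PBS, and Ckm was at 0.479 and 0.533 RPKM. With AA the mean of each of the 5 was higher in both media. The part of these shifts in the results on the members was not tested. Summed markers of adipocytes, immune cells and endothelial cells were at most 2.74 RPKM in any library, and those of epithelial cells reached 40.3 RPKM, nearly all from Krt19. AA effects also moved with base composition. The median log2 fold change of AA against PBS was 0.084 in GM and 0.10 in DM among the genes in the lowest decile of transcript GC content, and -0.094 and -0.10 in the highest decile.

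p53 binds DNA at sites made of a pair of 10-base motifs, called half-sites. The 250 bases upstream of the annotated starts of the members, from RefSeq on GRCm38.p6, are shown for 4 members in which this stretch holds a match to the half-site consensus. Plk2, whose AA response differed between media, is shown as a member whose stretch holds none. Bbc3, Phlda3 and Btg2 also hold no match, nor does the first Sesn1 start. The AA effects of Bbc3, Phlda3 and Btg2 did not pass the test of a difference between media. Those of the 4 members with a match did not pass it either. Matches are in capitals and all other bases in lower case. The stretches lie at chr7:45466899-45467148 on the minus strand for Bax, chr10:117710759-117711008 on the minus strand for Mdm2, chr11:40755287-40755536 on the minus strand for Ccng1, chr10:41887189-41887438 on the plus strand for the second Sesn1 start and chr13:110394794-110395043 on the plus strand for Plk2.

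Bax: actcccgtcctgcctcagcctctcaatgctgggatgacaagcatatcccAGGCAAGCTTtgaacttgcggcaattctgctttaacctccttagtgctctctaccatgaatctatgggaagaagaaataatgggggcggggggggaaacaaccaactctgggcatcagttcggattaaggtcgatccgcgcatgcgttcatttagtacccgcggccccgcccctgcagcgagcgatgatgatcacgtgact
Mdm2: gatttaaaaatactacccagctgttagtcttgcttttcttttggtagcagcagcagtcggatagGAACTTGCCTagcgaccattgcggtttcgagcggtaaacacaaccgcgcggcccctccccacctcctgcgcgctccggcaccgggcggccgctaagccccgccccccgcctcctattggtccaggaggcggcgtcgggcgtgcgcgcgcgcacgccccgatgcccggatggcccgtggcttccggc
Ccng1: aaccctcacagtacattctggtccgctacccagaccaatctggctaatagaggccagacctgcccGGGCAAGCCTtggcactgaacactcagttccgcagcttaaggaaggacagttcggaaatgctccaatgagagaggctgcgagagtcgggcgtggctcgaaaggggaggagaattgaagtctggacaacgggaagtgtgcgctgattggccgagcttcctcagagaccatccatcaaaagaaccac
Sesn1, second start: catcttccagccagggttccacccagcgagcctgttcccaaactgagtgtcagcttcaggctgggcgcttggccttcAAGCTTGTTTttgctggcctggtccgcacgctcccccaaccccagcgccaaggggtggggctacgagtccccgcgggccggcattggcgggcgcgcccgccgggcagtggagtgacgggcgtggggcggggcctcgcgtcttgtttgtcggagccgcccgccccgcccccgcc
Plk2: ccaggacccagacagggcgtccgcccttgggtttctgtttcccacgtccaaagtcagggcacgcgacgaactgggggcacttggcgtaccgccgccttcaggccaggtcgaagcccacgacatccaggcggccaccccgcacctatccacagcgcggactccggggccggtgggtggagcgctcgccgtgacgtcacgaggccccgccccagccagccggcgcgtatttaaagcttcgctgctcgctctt

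The match began 201 bases before the start in Bax, 186 in Mdm2, 185 in Ccng1 and 173 at the second Sesn1 start. Of the 8 members with an entry, 4 (50%) held a match at a start, compared with 8.2% of 27025 genes. The consensus reads as itself on the opposite strand, so a single match covers both strands. A pair of half-sites separated by at most 13 bases, as in a full p53 site, stood in none of the 8, compared with 18 of 27025 genes. Counted by start, such a pair stood in 21 of 32851 annotated starts. One of these 21 starts belongs to Cdkn1a, the CDK inhibitor p21 and the best known p53 target. A match is a description of the letters in this window only. For Mdm2, known response elements lie in the first intron, outside it.

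Levels of the members spanned a wide range. Compared per length, the mean in GM-PBS was 119 RPKM for Phlda3, an inhibitor of Akt signalling, and 73.6 RPKM for Ccng1, or cyclin G1, which recruits a phosphatase to Mdm2. The ubiquitin ligase gene Mdm2 had a mean of 48.8 RPKM, the pore-forming death effector Bax 43.3 RPKM and the kinase gene Plk2 24.2 RPKM. Btg2, an antiproliferative partner of mRNA deadenylases, stood at 13.04 RPKM. The next genes were Trp53inp1 (7.99 RPKM), a stress protein that enhances p53 activity, Sesn1 (7.90 RPKM), a sestrin that restrains mTORC1, and Pmaip1 (6.54 RPKM), the BH3-only death gene also called Noxa. The lowest was Bbc3 (3.75 RPKM), the BH3-only death gene also called Puma. In GM-PBS the ranges of neighbours in this order overlapped for Trp53inp1 with Sesn1 and for Sesn1 with Pmaip1. In DM-PBS the order was changed mainly by Sesn1, at 24.96 RPKM, and by Mdm2, at 30.6 RPKM. Levels below are CPM, counts scaled to a common library size, which serve to compare libraries for a gene and not genes with each other.

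**Figure D1:**
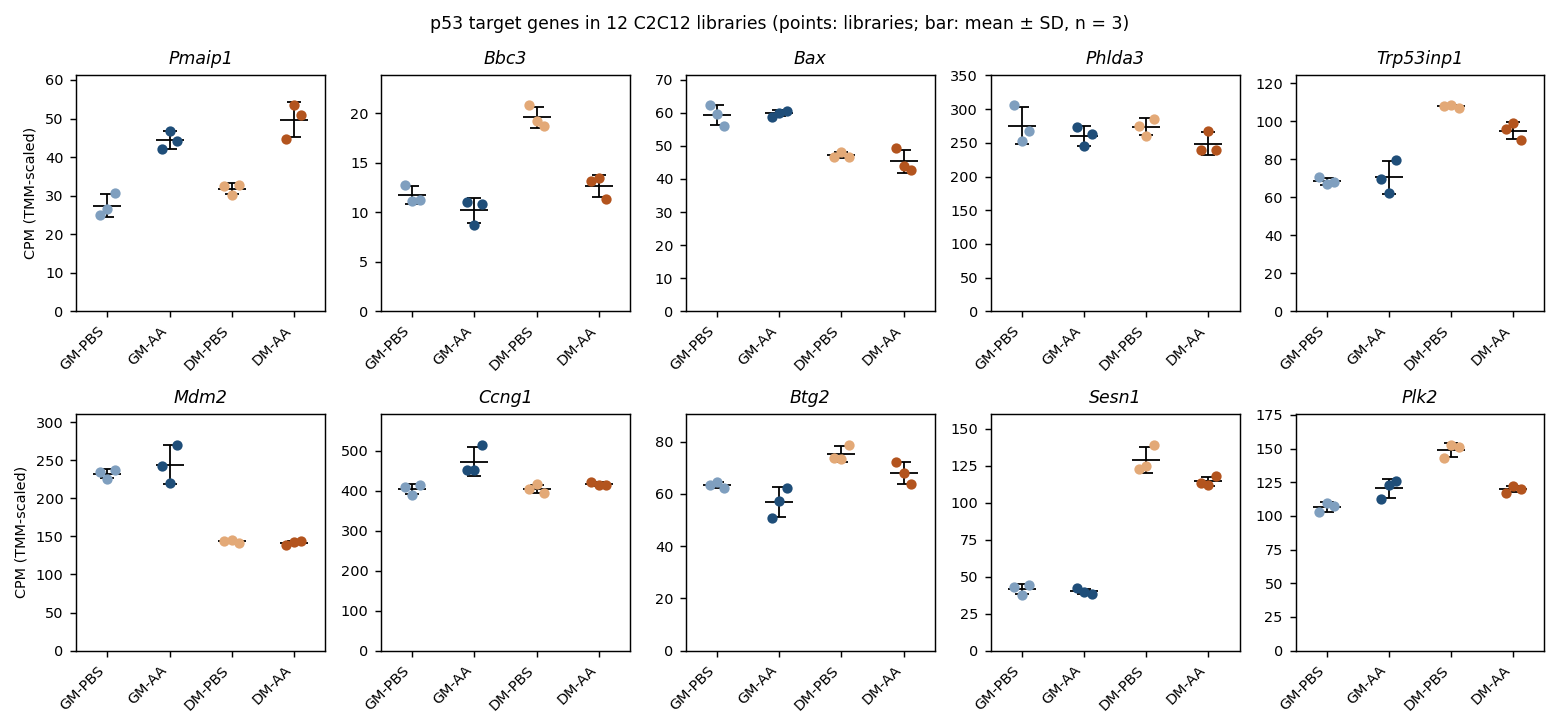
Level of each of the 10 p53 target genes in each of the 12 libraries, in CPM, 1 panel a gene with its own vertical axis. Points are libraries and lines are the group mean and 1 SD (n = 3); Pmaip1 is higher in both AA groups than in both PBS groups, Sesn1 higher in both DM groups, and Plk2 highest in DM-PBS.

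The first question was which members responded to AA in growth medium. In GM, 3 of the 10 members rose with AA and none fell at a 5% false discovery rate (FDR). Among all tested genes 9.76% rose and 11.0% fell. The 3 were Pmaip1, Ccng1 and Plk2, and the fold change of Pmaip1 was the largest of the 10. The median log2 fold change of the 10 members was 0.028, beside -0.0034 over all tested genes. With 3 libraries a group, the groups did not overlap for 5 members, 3 of them above (16.4% of all tested genes) and 2 below (17.6%).

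Pmaip1 encodes a small protein that binds and neutralises Mcl1, a survival protein of the BCL2 family. Its level was 24.9, 26.5 and 30.7 CPM in GM-PBS and 42.1, 46.8 and 44.3 CPM in GM-AA. Each AA library stood above each PBS library, and the log2 fold change was 0.70 ± 0.083 (SE; adjusted p = 1.12e-07, edgeR), or 1.62-fold. A change of larger size in either direction was seen in 2.80% of tested genes. Pmaip1 has a transcript GC content of 41.6%, in the lowest decile; with each library's trend on GC content and length removed its log2 fold change was 0.58 ± 0.081 (adjusted p = 2.09e-06, edgeR). In these bulk libraries a change in the number of cells that express a gene and a change in the RNA per cell cannot be told apart.

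The other BH3-only member, Bbc3, did not pass the test in GM. It stood at 12.7, 11.1 and 11.2 CPM in GM-PBS and at 11.0, 8.71 and 10.8 CPM in GM-AA. The groups lay side by side without overlap, with a log2 fold change of -0.20 ± 0.13 (adjusted p = 0.282, edgeR). Bax, which permeabilises the mitochondrial outer membrane once BH3-only proteins have engaged it, was at 62.2, 59.5 and 56.1 CPM in GM-PBS and 58.8, 60.1 and 60.6 CPM in GM-AA. Its groups overlapped, at a log2 fold change of 0.013 ± 0.062. Phlda3 ranged from 252 to 306 CPM in GM-PBS and from 245 to 273 CPM in GM-AA, and Trp53inp1 from 66.9 to 70.4 and from 62.4 to 79.7 CPM. Both overlapped between groups, with log2 fold changes of -0.080 ± 0.059 and 0.043 ± 0.066. Of the 5 members with a role in cell death, only Pmaip1 passed the test in GM.

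Of the members that act on p53, Ccng1 passed the test and Mdm2 did not. Ccng1 was at 411, 389 and 414 CPM in GM-PBS and 453, 452 and 516 CPM in GM-AA, a log2 fold change of 0.23 ± 0.049 (adjusted p = 8.55e-04, edgeR). The groups did not overlap, and the third GM-AA library stood above the other 2. Mdm2 was at 235, 226 and 238 CPM in GM-PBS and 242, 220 and 270 CPM in GM-AA, so the AA libraries spanned the PBS libraries (0.069 ± 0.053, adjusted p = 0.386, edgeR). Ccng1 has the lowest GC content of the 10 members (37.4%). With the trend on GC content and length removed, its log2 fold change was 0.074 ± 0.046 (adjusted p = 0.279, edgeR), and it no longer passed the test.

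Among the growth arrest and stress genes, Plk2, a polo-like kinase that acts in centriole duplication and stress responses, was the only one past the test in GM. It was at 103, 110 and 107 CPM in GM-PBS and 113, 123 and 126 CPM in GM-AA, a log2 fold change of 0.18 ± 0.052 (adjusted p = 0.0136, edgeR). The groups did not overlap. The call was lost after removal of the GC and length trend (0.12 ± 0.050, adjusted p = 0.0945, edgeR). It was also lost without the second or the third GM-AA library or the first GM-PBS library (adjusted p = 0.0536, 0.0833 and 0.0630, edgeR). Btg2 was at 63.3, 64.6 and 62.3 CPM in GM-PBS and 50.9, 57.3 and 62.3 CPM in GM-AA. The third AA library reached the lowest PBS library to within rounding, and the log2 fold change of -0.16 ± 0.067 (adjusted p = 0.0872, edgeR) passed the test after removal of the GC and length trend (-0.20 ± 0.066, adjusted p = 0.0259, edgeR) and without the third GM-AA library (adjusted p = 0.0230, edgeR). Sesn1 overlapped between the groups, at -0.056 ± 0.074.

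**Figure D2:**
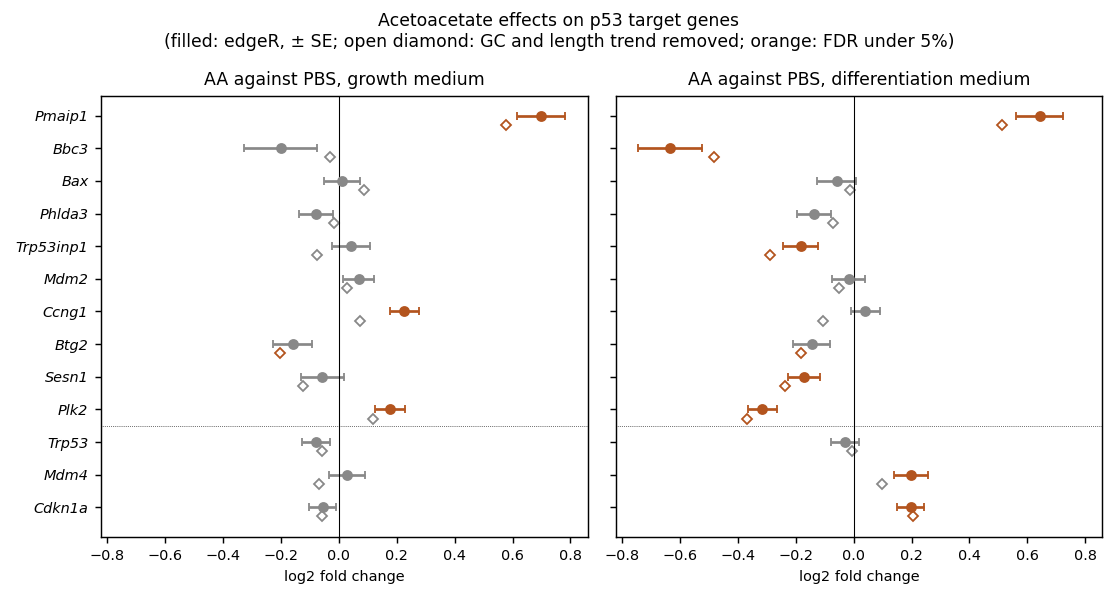
Log2 fold change of AA against PBS for each member and, under the dotted line, Trp53, Mdm4 and Cdkn1a, in GM and in DM, as filled points with bars of 1 SE (edgeR, 3 libraries a group), where open diamonds are values after removal of the GC and length trend, and orange marks genes past 5% FDR. Pmaip1 stands at 0.70 and 0.64, and Plk2 is above 0 in GM and below 0 in DM.

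The same question was asked in differentiation medium. In DM, 1 member rose with AA and 4 fell, where 12.6% of all tested genes rose and 13.8% fell. Pmaip1 again rose, and Bbc3, Plk2, Trp53inp1 and Sesn1 fell. The median log2 fold change of the members was -0.14, beside 0.0021 over all tested genes. Groups did not overlap for 1 member above (19.9% of tested genes) and 5 below (20.2%), the fifth being Btg2.

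Pmaip1 was at 32.6, 30.1 and 32.8 CPM in DM-PBS and 44.7, 53.4 and 51.0 CPM in DM-AA. The log2 fold change was 0.64 ± 0.080 (adjusted p = 1.34e-07, edgeR), or 1.56-fold, and each AA library stood above each PBS library. After removal of the GC and length trend it was 0.51 ± 0.078 (adjusted p = 4.42e-06, edgeR). Bbc3 moved the other way. It was at 20.8, 19.2 and 18.7 CPM in DM-PBS and 13.1, 13.5 and 11.4 CPM in DM-AA, a log2 fold change of -0.63 ± 0.11 (adjusted p = 3.84e-05, edgeR). All 3 AA libraries lay well below the PBS libraries, near the levels seen in GM. Bbc3 has a GC content of 68.6%, the highest of the 10 members, and after removal of the GC and length trend the log2 fold change was -0.48 ± 0.10 (adjusted p = 6.15e-04, edgeR). Thus in DM these BH3-only genes, which act at the same step of cell death, changed in opposite directions.

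Trp53inp1 was at 108, 108 and 107 CPM in DM-PBS and 95.8, 99.2 and 90.2 CPM in DM-AA. The groups did not overlap and the log2 fold change was -0.18 ± 0.060 (adjusted p = 0.0229, edgeR). This call was lost with DESeq2 (adjusted p = 0.0772) and without the third DM-AA library or the first or second DM-PBS library (adjusted p = 0.137, 0.0678 and 0.0635, edgeR). The log2 fold change was -0.29 ± 0.058 (adjusted p = 2.29e-04, edgeR) after removal of the GC and length trend. Bax was at 46.7, 48.2 and 46.7 CPM in DM-PBS and 49.4, 43.8 and 42.8 CPM in DM-AA, with overlap (-0.058 ± 0.068, adjusted p = 0.573, edgeR). Phlda3 was at 275, 261 and 286 CPM in DM-PBS and 240, 268 and 239 CPM in DM-AA, so that the second AA library fell among the PBS libraries (-0.14 ± 0.059, adjusted p = 0.0861, edgeR). It passed the test without that library (adjusted p = 0.0293, edgeR), with no filter on low counts (0.0430) and in a fit to the DM groups alone (0.0413). After removal of the GC and length trend, Phlda3 was at -0.070 ± 0.051 (adjusted p = 0.348, edgeR).

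Neither of the members that act on p53 passed the test in DM. Mdm2 was at 144, 145 and 141 CPM in DM-PBS and 139, 143 and 143 CPM in DM-AA, a narrow and shared range (-0.017 ± 0.057, adjusted p = 0.862, edgeR). Ccng1 was at 404, 416 and 395 CPM in DM-PBS and 422, 415 and 414 CPM in DM-AA. Its log2 fold change was 0.041 ± 0.049 (adjusted p = 0.585, edgeR), and -0.11 after removal of the GC and length trend.

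Plk2 was at 143, 153 and 151 CPM in DM-PBS and 117, 122 and 120 CPM in DM-AA. The groups stood apart, and the log2 fold change was -0.32 ± 0.050 (adjusted p = 1.04e-05, edgeR), or -0.37 ± 0.049 after removal of the GC and length trend. Sesn1 was at 123, 125 and 139 CPM in DM-PBS and 113, 112 and 118 CPM in DM-AA. The groups did not overlap (-0.17 ± 0.055, adjusted p = 0.0199, edgeR), but the call was lost with DESeq2 (adjusted p = 0.0781) and without the first or second DM-AA library (0.0597 and 0.0749, edgeR) or the third DM-PBS library (0.175, edgeR), the highest of its group. After removal of the GC and length trend, Sesn1 stood at -0.24 ± 0.052 (adjusted p = 7.12e-04, edgeR). Btg2 was at 73.7, 73.5 and 78.9 CPM in DM-PBS and 72.3, 68.0 and 64.0 CPM in DM-AA, without overlap (-0.15 ± 0.064, adjusted p = 0.0910, edgeR). It passed the test after removal of the GC and length trend (-0.18 ± 0.063, adjusted p = 0.0320, edgeR) and without the first DM-AA library (adjusted p = 0.0471, edgeR).

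**Figure D3:**
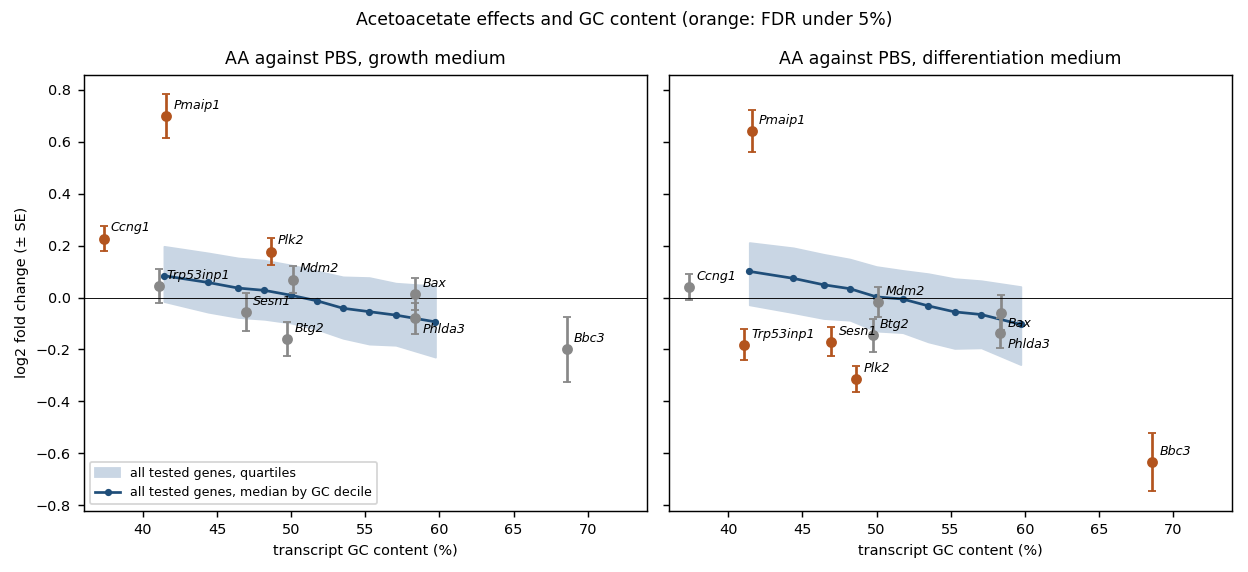
AA against PBS log2 fold change of each member (points, with bars of 1 SE) against its transcript GC content in percent, in GM and in DM, over the median (line) and quartiles (band) of all tested genes by GC decile, with orange for members past 5% FDR. Genes of low GC content have medians above 0 and those of high GC content below 0, and Pmaip1 lies far above the band in both media.

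Whether AA acted differently in the 2 media was tested as the AA effect in DM less that in GM. Of the 10 members only Plk2 passed, at -0.49 ± 0.072 (adjusted p = 3.25e-05, edgeR), where 2.67% of all tested genes passed in that direction and 2.58% in the other, 5.24% in all. Each GM-AA library of Plk2 stood above each GM-PBS library, and each DM-AA library below each DM-PBS library. The rise of Plk2 in GM, taken alone, lost its call after removal of the GC and length trend (adjusted p = 0.0945, edgeR). Leaving out 1 library at a time gave differences of -0.54 to -0.46, all past the test, and removing the GC and length trend gave -0.49 ± 0.070 (adjusted p = 1.97e-05, edgeR). Pmaip1 differed by -0.057 ± 0.12 (adjusted p = 0.874, edgeR). For Bbc3 the difference was -0.43 ± 0.17 (adjusted p = 0.144, edgeR), so its fall with AA in DM was not shown to differ from its value in GM. Ccng1 (-0.19 ± 0.069, adjusted p = 0.123, edgeR) and Trp53inp1 (-0.23 ± 0.089, adjusted p = 0.154, edgeR) did not pass either. Trp53inp1 passed at -0.31 without the second GM-AA library (adjusted p = 0.0333, edgeR).

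The change of medium moved more of the members than AA did. Between GM-PBS and DM-PBS, 6 of the 10 members rose in DM and 2 fell, but 27.0% of all tested genes also rose and 27.4% fell. Sesn1, Bbc3, Trp53inp1, Plk2, Btg2 and Pmaip1 were higher in DM, and Mdm2 and Bax lower. The median log2 fold change of the members was 0.23, beside 0.0071 over all tested genes. Groups did not overlap for 5 members above and 2 below, beside 29.7% of all tested genes in each direction. With AA in both media, 4 members were higher in DM and 3 lower, beside 25.9% and 26.3% of tested genes. Their groups did not overlap for the same numbers of members, 4 above (28.6% of tested genes) and 3 below (28.8%). The comparisons with AA and between media share libraries, so their values are given side by side only.

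Sesn1 had the largest difference. In PBS it went from 43.0, 37.6 and 44.0 CPM in GM to 123, 125 and 139 CPM in DM, a log2 fold change of 1.63 ± 0.063 (adjusted p = 5.81e-21, edgeR), or 3.10-fold. Only 2.37% of tested genes changed by more. In AA it went from 42.1, 39.5 and 38.4 CPM to 113, 112 and 118 CPM (1.52 ± 0.064, adjusted p = 6.06e-20, edgeR). Thus with either addition every DM library of Sesn1 exceeded every GM library.

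Mdm2 showed the reverse pattern, with each DM library below each GM library in the values given above. Its log2 fold change was -0.70 ± 0.055 in PBS (adjusted p = 9.74e-13, edgeR) and -0.78 ± 0.055 in AA (adjusted p = 5.55e-14, edgeR). Bax also fell, by 0.33 ± 0.065 on the log2 scale in PBS (adjusted p = 5.68e-05, edgeR) and by 0.40 ± 0.065 in AA (adjusted p = 3.71e-06, edgeR). Of the length of Bax exons in GENCODE M21, 12.2% is shared with another annotated gene on the same strand, so some of its reads could belong there. Ccng1 did not pass the test between media in PBS (0.0022 ± 0.049, adjusted p = 0.975, edgeR). With AA in both media, Ccng1 was lower in DM, at -0.18 ± 0.049 on the log2 scale (adjusted p = 0.00192, edgeR).

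Trp53inp1 went from 70.4, 66.9 and 67.9 CPM in GM-PBS to between 107 and 108 CPM in the DM-PBS libraries. The log2 fold change was 0.66 ± 0.063 (adjusted p = 8.24e-11, edgeR), and 0.43 ± 0.063 in AA (adjusted p = 6.70e-07, edgeR). Bbc3 rose in DM without AA by 0.74 ± 0.11 (adjusted p = 8.49e-07, edgeR). With AA the difference in Bbc3 between media was 0.31 ± 0.13 (adjusted p = 0.0368, edgeR). That call was lost with DESeq2 (0.111), after removal of the GC and length trend (0.204, edgeR), and without the first or second DM-AA or the second GM-AA library (0.102, 0.127 and 0.201, edgeR). Plk2 rose in DM without AA by 0.48 ± 0.051 (adjusted p = 7.73e-10, edgeR) and with AA stood at -0.0092 ± 0.051, so that GM-AA and DM-AA overlapped. The value of Plk2 in DM-PBS was above all other groups.

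Btg2 was higher in DM by nearly the same amount in both settings, 0.25 ± 0.064 in PBS and 0.26 ± 0.066 in AA (adjusted p = 0.00138 and 0.00116, edgeR). Phlda3 did not pass the test between media, at -0.0085 ± 0.059 in PBS (adjusted p = 0.915, edgeR). Pmaip1 passed the test between media in PBS, at 0.22 ± 0.088 (adjusted p = 0.0338, edgeR), with overlapping groups. The Pmaip1 call was lost with DESeq2 (0.0912) and without the first or the third DM-PBS or the first or second GM-PBS library (0.0974, 0.0877, 0.176 and 0.0941, edgeR). In AA the difference of Pmaip1 between media was 0.16 ± 0.076 (adjusted p = 0.0697, edgeR). It passed there with the RPKM divisor as library size (0.0337) and without the first DM-AA or the second GM-AA library (0.0163 and 0.0484).

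**Figure D4:**
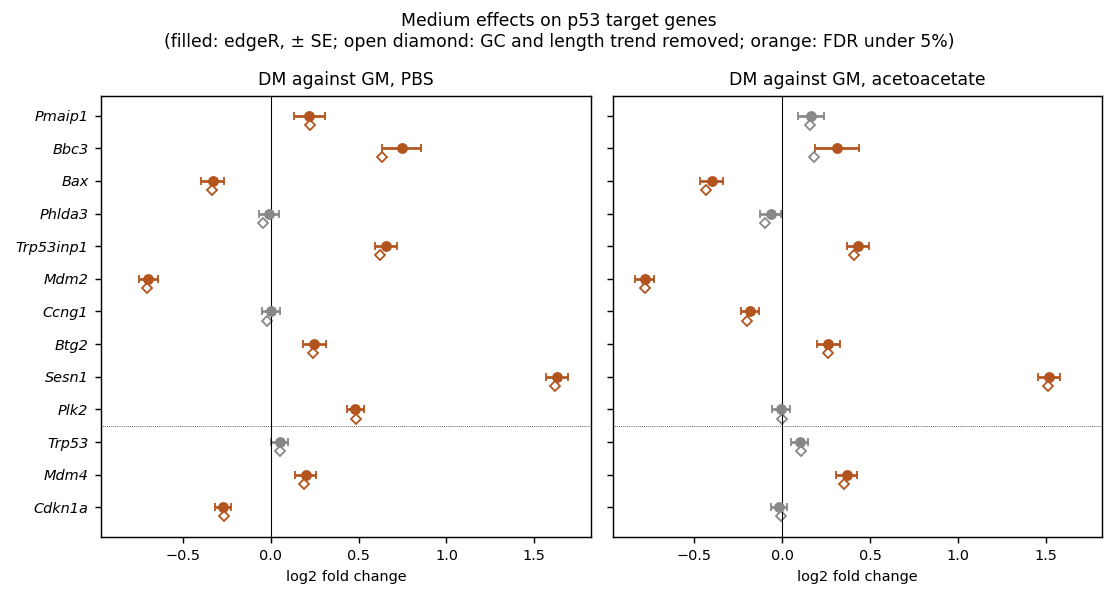
Log2 fold change of DM against GM for each member and, under the dotted line, Trp53, Mdm4 and Cdkn1a, in PBS and in AA, as filled points with bars of 1 SE (edgeR, 3 libraries a group), where open diamonds are values after removal of the GC and length trend, and orange marks genes past 5% FDR. Sesn1 stands at 1.63 and 1.52, Mdm2 at -0.70 and -0.78, and Plk2 at 0.48 in PBS and near 0 in AA.

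The mRNA of p53 itself lay in a narrow range. Trp53 was at 154, 159 and 149 CPM in GM-PBS, 144, 142 and 151 CPM in GM-AA, 154, 166 and 158 CPM in DM-PBS and 163, 155 and 151 CPM in DM-AA. In the fit to all 12 libraries, none of the 4 comparisons of groups passed the test, with log2 fold changes of -0.079 (adjusted p = 0.272) and -0.030 (0.702) for AA in GM and in DM, and 0.051 (0.397) and 0.10 (0.0876) for DM in PBS and in AA (edgeR). The last of these passed with the RPKM divisor as library size (adjusted p = 0.0274, edgeR). Mdm4, the partner of Mdm2 in restraining p53, was at 75.3, 78.4 and 68.2 CPM in DM-PBS and 85.8, 83.5 and 85.3 CPM in DM-AA (0.20 ± 0.059, adjusted p = 0.0121, edgeR). The Mdm4 call was lost without the third DM-PBS library (adjusted p = 0.0915, edgeR) and after removal of the GC and length trend (0.211, edgeR). Between media, Mdm4 was higher in DM by 0.20 ± 0.061 in PBS (adjusted p = 0.00660, edgeR), with overlapping groups, and by 0.37 ± 0.060 in AA (adjusted p = 4.06e-06, edgeR). The call in PBS was lost without the second DM-PBS or the first GM-PBS library (0.0539 and 0.0505, edgeR).

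Cdkn1a, which halts the cell cycle downstream of p53, was at 474, 470 and 472 CPM in DM-PBS and 534, 538 and 550 CPM in DM-AA, a log2 fold change of 0.20 ± 0.047 (adjusted p = 0.00182, edgeR). In GM its groups overlapped, at 577, 563 and 567 CPM in GM-PBS and 562, 502 and 578 CPM in GM-AA. The difference of the AA effects was 0.25 ± 0.066 for Cdkn1a (adjusted p = 0.0176, edgeR), the opposite direction to that of Plk2, and the call was lost without the third DM-AA or the second GM-AA library (0.0515 and 0.0832, edgeR). Without AA, Cdkn1a was lower in DM than in GM (-0.27 ± 0.047, adjusted p = 9.78e-06, edgeR), and with AA it stood at -0.017 (adjusted p = 0.782, edgeR). Of the exon bases of Cdkn1a, 7.68% overlap an annotated gene on the opposite strand.

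Of 53 other tested p53 target genes, 11 rose and 5 fell with AA in GM, beside 9.76% and 11.0% of all tested genes. The median log2 fold change was 0.041. The count of risers was 5 with DESeq2, and leaving out 1 GM library at a time gave 6 to 9. It was 7 without the first GM-AA library and 6 without the third GM-AA or the second or the third GM-PBS library. The count of fallers was 3 to 5 in these fits, and 3 without the first GM-PBS library. Eda2r, a member of the TNF receptor family, rose from 44.0 ± 3.91 CPM in GM-PBS to 62.7 ± 7.45 in GM-AA (SD, n = 3; log2 fold change 0.51 ± 0.077, adjusted p = 8.05e-06, edgeR). Ccng2, or cyclin G2, fell from 110 ± 6.54 to 78.2 ± 1.97 CPM (-0.49 ± 0.056, adjusted p = 4.88e-08, edgeR). Its relative Ccng1 was among the members that rose, a call lost after removal of the GC and length trend. Ddit4, an inhibitor of mTORC1, also fell in GM, at -0.32 ± 0.052 (adjusted p = 2.31e-05, edgeR).

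In DM, 6 of the 53 rose with AA and 7 fell, beside 12.6% and 13.8% of all tested genes, with a median of -0.032. The number that fell was 4 with DESeq2, and leaving out 1 DM library at a time gave 4 to 6. It was 4 without the third DM-AA or the first DM-PBS library. Thbs1, which encodes the matrix protein thrombospondin-1, fell from 2402 ± 40.6 CPM in DM-PBS to 1599 ± 105 CPM in DM-AA (SD, n = 3; -0.59 ± 0.051, adjusted p = 8.24e-11, edgeR). Ccng2 fell again (-0.39 ± 0.055, adjusted p = 1.11e-06, edgeR). Igfbp3, which binds insulin-like growth factors, rose by 0.65 ± 0.14 (adjusted p = 5.31e-04, edgeR). Between media in PBS, 17 of the 53 were higher in DM and 19 lower, beside 27.0% and 27.4% of all tested genes. The median was -0.061, beside 0.0071 over all tested genes. Leaving out 1 PBS library at a time gave 14 to 16 higher and 18 to 20 lower. Sesn3, a sestrin like Sesn1, was higher in DM by 2.04 ± 0.11 (adjusted p = 1.33e-17, edgeR). Thbs1 was also higher in DM, by 1.12 ± 0.052 (adjusted p = 6.97e-19, edgeR). Among the 19 lower genes were Gdf15, at -1.53 ± 0.10 (adjusted p = 8.50e-15, edgeR), and Steap3, at -0.67 ± 0.057 (adjusted p = 4.75e-12, edgeR).

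Of 19 tested regulators of p53, Trp53 included, 1 rose and 3 fell with AA in GM (9.76% and 11.0% of all tested genes), and 2 rose and 5 fell in DM (12.6% and 13.8%). In GM only 1 fell without the first GM-AA library. In DM, 2 or 3 fell without any 1 of the 3 DM-AA libraries or the first or second DM-PBS library, and with DESeq2, RLE factors or the RPKM divisor, and 1 rose without the third DM-PBS library or after removal of the GC and length trend. Pml, the organiser of nuclear bodies in which p53 is modified, fell in both media, from 229 ± 9.91 to 178 ± 11.1 CPM in GM and from 231 ± 14.3 to 176 ± 5.75 CPM in DM (SD, n = 3). The log2 fold changes of Pml were -0.37 ± 0.053 (adjusted p = 4.08e-06, edgeR) and -0.40 ± 0.053 (5.65e-07). Ppp1r13l, an inhibitor of p53 also called iASPP, fell in DM by 0.40 ± 0.089 on the log2 scale (adjusted p = 9.74e-04, edgeR). Between media without AA, 5 regulators were higher in DM and 5 lower, beside 27.0% and 27.4% of all tested genes. Leaving out 1 PBS library at a time gave 4 to 6 higher and 5 to 6 lower. The checkpoint kinase genes Atm and Chek1 were lower, at -0.98 ± 0.061 and -1.13 ± 0.12, as was Ppp1r13l, at -0.57 ± 0.080. Trp53bp1, which encodes a DNA damage response protein that binds p53, was higher, at 0.31 ± 0.052 (adjusted p = 6.03e-06, edgeR), although 15.0% of its exon bases overlap a gene on the opposite strand. Cdkn2a, whose ARF product restrains Mdm2, is listed at 0 reads in all 12 libraries.

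The BCL2 family holds the partners of Pmaip1, Bbc3 and Bax. Of 14 other tested members of the family, 2 rose and 2 fell with AA in GM (9.76% and 11.0% of all tested genes), and 2 rose and 5 fell in DM (12.6% and 13.8%). In GM 4 fell without the first GM-AA library, 1 fell without the second or the third library of either GM group, and 1 rose without the first GM-PBS library. In GM 1 also fell with DESeq2, the RPKM divisor, a fit to the GM groups alone or the replicate block, and in DM 1 rose without the first DM-PBS library. Bcl2l11, the BH3-only gene also called Bim, fell from 62.2 ± 4.33 to 43.3 ± 3.19 CPM in GM (SD, n = 3; -0.52 ± 0.069, adjusted p = 7.45e-07, edgeR), and by 0.32 ± 0.061 on the log2 scale in DM (adjusted p = 1.47e-04, edgeR). Bid, a BH3-only gene whose protein is activated by caspases, rose in GM from 73.4 ± 3.14 to 100.9 ± 1.49 CPM (0.46 ± 0.055, adjusted p = 1.51e-07, edgeR). However, 17.7% of its exon bases overlap Bcl2l13 on the opposite strand. Mcl1, the survival partner of Pmaip1, was at 0.15 ± 0.051 in GM (adjusted p = 0.0308, edgeR), a call lost without the first GM-AA or the first GM-PBS library. Bcl2l1, the survival gene also called Bcl-xL, fell in DM from 95.6 ± 5.80 to 75.9 ± 4.94 CPM (-0.33 ± 0.060, adjusted p = 6.33e-05, edgeR). Between media without AA, 2 were higher in DM and 5 lower, beside 27.0% and 27.4% of all tested genes. Leaving out 1 PBS library at a time gave 4 to 6 lower. The higher genes were the BH3-only genes Bmf and Bcl2l11, by 2.44 ± 0.086 and 0.54 ± 0.062. Lower were Bnip3 and Bnip3l, which act in mitophagy, at -1.49 ± 0.082 and -0.56 ± 0.055, with Bok (-0.54 ± 0.071), Bcl2l1 (-0.43 ± 0.056) and Bcl2 (-0.21 ± 0.080). Of the exon bases of Bnip3, 22.3% overlap a gene on the opposite strand. Thus with AA in GM, Pmaip1 and Bid rose and Bcl2l11 fell, while Bbc3 did not pass the test.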

How the data were processed

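RNA-seq of 12 C2C12 libraries was used as deposited. The submitters' processing notes name BWA 0.5.9-r16 and mm9; how reads were assigned to genes, and with which strand and annotation, is not given in the sources used here. Per the file headers, the authors deposited raw read counts and RPKM for 23446 genes, and RPKM recomputed from counts and gene lengths matched within 0.000498%.

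The counts were tested with edgeR 4.0.16 in R 4.3.3: filterByExpr (12230 genes kept), TMM scaling, 4 group means in 1 quasi-likelihood fit, two-sided, with Benjamini-Hochberg adjustment over all tested genes at 5% FDR (8 residual degrees of freedom, biological coefficient of variation 4.08%). The SE is the absolute log2 fold change divided by the root of F. CPM were TMM-scaled, and deposited RPKM served to compare genes. The script was tested on simulated data.

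The members and gene lists were chosen with earlier results of these data known. Named are the 10 members, Trp53, Mdm4 and Cdkn1a, and of each list up to 4 genes past 5% FDR with the smallest p in a comparison, of which examples are shown. Repeated mentions of those genes in another comparison, Cdkn2a, Gdf15, Steap3, Bok and Bcl2 were chosen after their values were seen. Some genes of the lists enter the counts but are not reported here. The lists are p53 regulators, other p53 targets, the BCL2 family, the TOB/BTG family and polo-like kinases. GENCODE M21 (GRCm38) gave exon overlaps, and GC content for 11621 tested genes (95.0%), and RefSeq gave promoters. Alternatives were DESeq2 1.42.0, RLE factors, the RPKM divisor as library size, no filter, a fit to the compared groups, a replicate block, removal of each library's GC and length trend, and leaving out each library. Same-numbered libraries did not deviate together (correlations -0.028 to 0.024).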

Additional observations from a re-analysis of the deposited data

Results flagged for a closer look

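The AA effect differed between the 2 media, by edgeR's test of the difference itself (DM minus GM, log2), for 1 member and 8 other genes named in the report. Of all tested genes, 5.24% passed this test. Cdkn1a apart, the 8 were named for small p-values in other comparisons of these data. Genes of the lists that are not named are outside this count. For Plk2 the difference was -0.49, from 0.18 in GM to -0.32 in DM. The call of Plk2 in GM alone was lost under some alternatives, while the difference passed under each alternative tried. Thbs1 differed by -0.55, from -0.041 to -0.59, also under each alternative. Cdkn1a differed by 0.25, Plk1 by 0.33 (from -0.20 to 0.13) and Abhd4, a lipase gene induced by p53, by -0.24 (from 0.049 to -0.19). Plk4 differed by 0.33, with an adjusted p of 0.0513 with DESeq2. Bid (-0.27), Btg1 (-0.29) and Igfbp3 (0.86) did not pass with DESeq2 (adjusted p = 0.128, 0.0960 and 0.0754). With the replicate block Bid (0.0501) and Btg1 (0.0600) did not pass either, nor did Btg1 with RLE factors (0.0509), the RPKM divisor (0.0515) or the GC and length trend removed (0.0529). Each of these except Plk2 and Thbs1 lost its call without at least 1 of the libraries.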

How the results depend on the processing

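The 76 called results for single genes gave 1109 pairs of a result and an alternative. Of these pairs, 1007 kept the call, 102 lost it and 0 changed direction. For 21 of the 76 results the call was lost under at least 1 alternative. Many of these genes were named for small p-values in the same data. The 35 results not called gave 545 such pairs, of which 493 stayed so, 14 passed and 38 changed sign. Removing each library's GC and length trend left 1 member higher (Pmaip1) and 1 lower (Btg2) for AA in GM, with or without the replicate block, where the main counts were 3 and 0. It turned the sign of Ccng1 for AA in DM to -0.106 (-0.106 with the replicate block). For AA in GM it gave -0.0663 for Mdm4 (-0.0660 with the block) and -0.0753 for Trp53inp1 (-0.0756), and for Ccng1 between media in PBS -0.0184 (-0.0179). DESeq2 left 2 members lower for AA in DM in place of 4, put Ccng1 between media in PBS at -0.0017, and called 787 genes higher for AA in GM in place of 1194. With no filter on low counts that Ccng1 value was -0.0016. The RPKM divisor as library size gave 0.010 for Cdkn1a and 0.019 for Plk2 between media in AA, and 0.018 for Phlda3 in PBS. The replicate block alone changed no call of a member and gave 3 members higher for AA in GM; of the other named genes it lost the call of Bnip3l for AA in GM (0.0583) and of Bid and Btg1 for the difference of AA effects.

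Leaving out 1 library moved these uncalled values across 0. Differences of the AA effects ranged from -0.060 to 0.086 for Btg2, -0.14 to 0.00083 for Phlda3 and -0.15 to 0.013 for Pmaip1, with 1 to 2 members lower. For AA in DM, Trp53 ranged from -0.059 to 0.00030. For AA in GM, the ranges were -0.024 to 0.054 for Bax, -0.097 to 0.0023 for Cdkn1a, -0.010 to 0.14 for Mdm2, -0.012 to 0.075 for Mdm4, -0.14 to 0.0073 for Phlda3 and -0.053 to 0.12 for Trp53inp1, with 0 to 1 members lower. Between media in AA they were -0.076 to 0.023 for Cdkn1a and -0.056 to 0.023 for Plk2, and in PBS -0.026 to 0.019 for Ccng1 and -0.068 to 0.075 for Phlda3. The cause of these moves was not tested. Bbc3, with as few as 75 reads in a library, has the widest SE of the members.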

Other observations

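Of 3 tested TOB/BTG genes besides Btg2, 1 fell with AA in DM (13.8% of all tested genes fell) and none passed in GM. That gene was Btg1, an antiproliferative relative of Btg2, which went from 199 ± 6.66 CPM in DM-PBS to 153 ± 9.34 in DM-AA (SD, n = 3; log2 fold change -0.38 ± 0.061, adjusted p = 1.25e-05, edgeR). Between media without AA, Btg1 was higher in DM by 0.36 ± 0.061 (adjusted p = 6.62e-06, edgeR) and Tob1 by 0.20 ± 0.066 (adjusted p = 0.00958, edgeR), the same direction as Btg2. The groups overlapped for Tob1, and its call was lost without the second DM-PBS library (adjusted p = 0.0563, edgeR) or the second GM-PBS library (0.14, adjusted p = 0.0920, edgeR).

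Plk4, the master kinase of centriole duplication, went from 48.2 ± 2.89 CPM in DM-PBS to 60.3 ± 0.769 in DM-AA (SD, n = 3; 0.32 ± 0.062, adjusted p = 1.42e-04, edgeR), while Plk2 fell there. Plk1, a mitotic kinase, was at -0.20 ± 0.065 for AA in GM (adjusted p = 0.0230, edgeR), a call lost with DESeq2 (0.0538), in a fit to the GM groups alone (0.0515) and after removal of the GC and length trend (0.0599). It was also lost without the first GM-AA library (-0.13, adjusted p = 0.196, edgeR) or the first GM-PBS library (-0.14, adjusted p = 0.184, edgeR). Without AA, Plk1 was higher in DM by 0.50 ± 0.061 (adjusted p = 1.45e-08, edgeR) and Plk4 lower, at -0.37 ± 0.061 (adjusted p = 4.45e-06, edgeR). The differences of the AA effects between media were positive for both, at 0.33 each, and negative for Plk2.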
